A study of Mus musculus with 12 samples.

Results

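Among the 15558 long noncoding RNAs (lncRNAs) tabulated from mouse liver, 3 entries at the Serpina3 gene cluster of chromosome 12 are described here. They are ncRNA_intra_chr12_10883, ncRNA_as_chr12_10887 and ncRNA_intra_chr12_10888. The members were listed by identifier and position with earlier results of these data known. Their levels and contrasts are therefore given as descriptions, without a test. The livers came from CD-1 mice (outbred) aged 8 weeks. All mice had received a nuclear receptor agonist, TCPOBOP (a CAR agonist) or PCN (a PXR agonist), and vehicle-treated livers were not analysed here. RNA was selected for poly-A tails, and each library held RNA pooled from several livers.

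The 12 libraries formed 8 groups. Nuclear RNA taken 3 h after TCPOBOP, in libraries made without strand, came from 3 female pools of 3, 4 and 4 livers (experiment G86) and from 3 male pools of 4 livers each (experiment G95). The other 6 groups were 1 library each, all male and of experiment G81. They were nuclear RNA of 2 livers 3 h after PCN and whole-tissue RNA of 6 livers 3 h after TCPOBOP, both without strand. The remaining 4 were strand-specific whole-tissue libraries of 6 livers, taken 6 h (2 PM) or 3 h (11 AM) after TCPOBOP or PCN. A pool is the replicate, and errors and calls measure the spread between pools only.

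Protein-coding Serpina3 genes encode serpins, a family that includes secreted inhibitors of proteases that act as suicide substrates. The human genome has a single SERPINA3, which encodes alpha-1-antichymotrypsin, an acute-phase plasma protein made by hepatocytes, whereas in the mouse the gene has been duplicated into a cluster of closely related copies. In RefSeq's annotation of build GRCm38 that run on chromosome 12 holds 14 Serpina3 entries, of which 10 are protein coding, with 3 other entries between the first and the last. CAR and PXR are ligand-activated transcription factors of the hepatocyte that induce genes of drug metabolism. An intragenic lncRNA lies within a gene and an antisense lncRNA runs opposite to a gene. Reads of members of a duplicated cluster can be split between copies or lost during alignment.

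Libraries held 7.31 M to 40.3 M reads without strand (M, 1e6) and 25.2 M to 27.8 M with strand. lncRNAs took 3.78% to 5.09% of the reads without strand and 0.794% to 0.918% with strand. The table names no genes, and 0 of 13 marker symbols of hepatocytes and other liver cells matched an identifier, so neither the tissue nor the label of the locus can be read from it. The deposited identifiers carry mm9 positions, and the annotation supplied is of another build, so which Serpina3 gene each entry overlaps was not analysed here. Neither was any sequence of the entries.

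In mm9, ncRNA_intra_chr12_10883 spans chr12:105372136-105582307 on the plus strand, 210.2 kb. ncRNA_as_chr12_10887 spans chr12:105583272-105651568 on the minus strand, 68.3 kb. ncRNA_intra_chr12_10888 spans chr12:105585227-105634106 on the plus strand, 48.9 kb, and lies wholly within the span of ncRNA_as_chr12_10887 on the opposite strand. The first of the 3 ends 964 bases before ncRNA_as_chr12_10887 begins, so it overlaps neither of the others.

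The length that the authors divided by was far shorter than the span. RPKM (reads divided by counted length in kilobases and by library total in M) came in steps of whole reads, from which 118 counted bases were recovered for ncRNA_intra_chr12_10883, 118 for ncRNA_as_chr12_10887 and 198 for ncRNA_intra_chr12_10888. These are 0.0561%, 0.173% and 0.405% of the spans. Among 12497 lncRNAs with a recovered length the median was 1408 bases, and 1 was shorter than 118 bases. For lncRNAs with few reads the recovered length is the smallest that gives whole reads, so theirs may be understated. A short counted length lifts RPKM: in the 7 nuclear libraries ncRNA_intra_chr12_10883 ranked between 1 and 4 among all lncRNAs by RPKM and between 36 and 100 by reads.

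**Figure D1:**
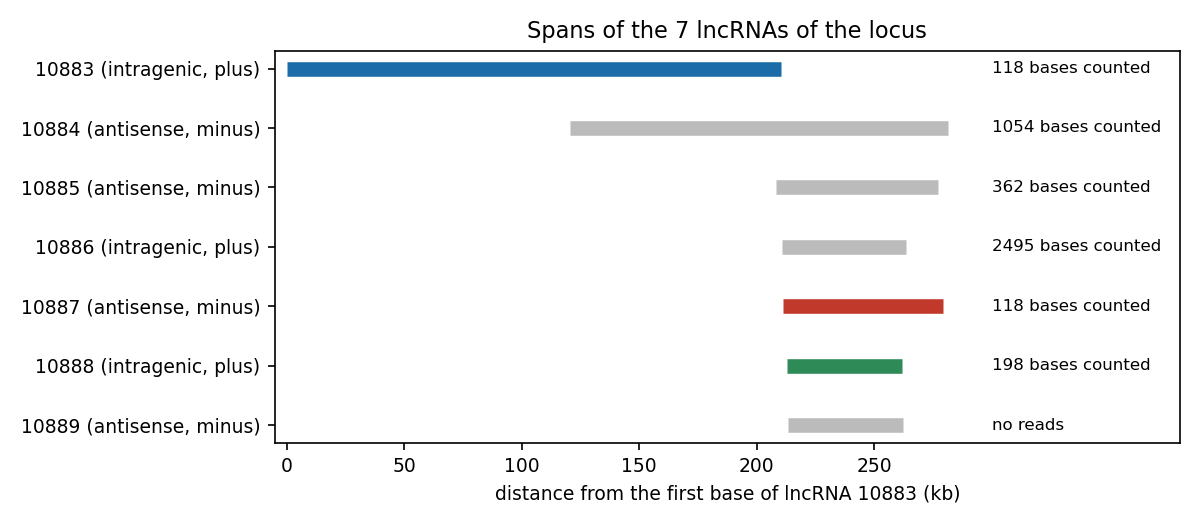
Horizontal bars show the mm9 spans of the 7 tabulated lncRNAs of the locus as distance in kb from the first base of ncRNA_intra_chr12_10883, coloured for the 3 members and grey for the others, with the counted bases at the right and each entry labelled by the last number of its identifier. ncRNA_intra_chr12_10883 lies to one side, and ncRNA_as_chr12_10887 and ncRNA_intra_chr12_10888 overlap on opposite strands.

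ncRNA_intra_chr12_10883 was the most abundant of the 3 per counted length in every library without strand. It had 1217, 849 and 500.2 RPKM in female nuclear TCPOBOP pools 1, 2 and 3 and 603, 1281 and 1167 RPKM in the male ones. Nuclear PCN RNA had 556 RPKM and unstranded whole-tissue TCPOBOP RNA 171 RPKM. The 4 stranded libraries were lower, with 76.1 RPKM (TCPOBOP, 6 h), 20.8 RPKM (TCPOBOP, 3 h), 72.4 RPKM (PCN, 6 h) and 77.5 RPKM (PCN, 3 h). These values rest on 760 to 3590 reads in nuclear RNA, 812 in the unstranded whole-tissue library and 63 to 250 in the stranded libraries. In the order of levels, male pool 2, female pool 1 and male pool 3 had exact Poisson 95% intervals that overlapped their neighbour, as did male pool 1 (561 to 647 RPKM) and the nuclear PCN library (528 to 586 RPKM). The stranded libraries other than TCPOBOP at 3 h overlapped as well. Such intervals cover counting error only, since reads carrying no molecular identifier may copy the same molecule.

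ncRNA_as_chr12_10887, the antisense entry, was seen in the libraries without strand and in none of the stranded ones. It had 557, 383 and 177 RPKM in female nuclear pools 1, 2 and 3, and 111, 213 and 178 RPKM in the male ones. Nuclear PCN RNA had 270.4 RPKM and unstranded whole-tissue RNA 87.9 RPKM, over 140 to 1644 reads in all 8 libraries. Each of the 4 stranded libraries had 0 reads, which allows up to 3 reads, or 0.913 to 1.01 RPKM. In the order of levels, male pools 2 and 3 and female pool 3 overlapped within counting error, as did male pool 1 and unstranded whole tissue, and the higher libraries were apart.

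ncRNA_intra_chr12_10888 had the opposite order of library kinds. In the stranded libraries it had 630.4 RPKM at 6 h and 720.0 RPKM at 3 h with TCPOBOP, and 668 RPKM at 6 h and 812 RPKM at 3 h with PCN, over 3330 to 4131 reads. There it ranked 1 among all lncRNAs by RPKM in each of the 4 libraries and between 6 and 8 by reads. Without strand it had 43.6, 34.9 and 23.0 RPKM in female nuclear pools 1, 2 and 3, and 4.26, 2.76 and 2.12 RPKM in the male ones. Nuclear PCN RNA had 18.2 RPKM and whole-tissue TCPOBOP RNA 5.39 RPKM. The male pool values rest on 9, 4 and 5 reads, so their exact Poisson 95% intervals are wide, from 0.689 to 8.08 RPKM over the 3 pools, and overlap that of unstranded whole tissue. Female pool 3 and the nuclear PCN library overlapped as well, as did female pools 1 and 2. With strand, the intervals of the TCPOBOP and PCN libraries of 6 h overlapped.

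**Figure D2:**
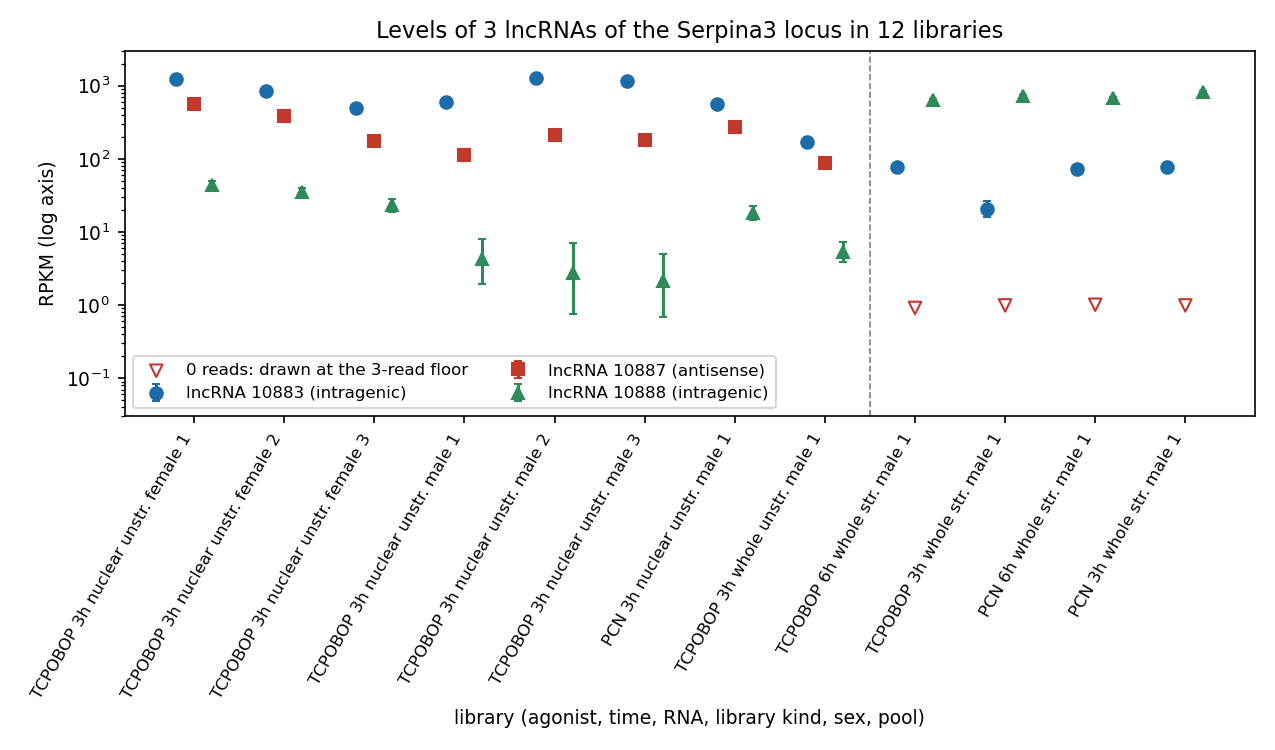
Points give RPKM (log axis) of the 3 lncRNAs in each of 12 libraries, unstranded left and stranded right of the dashed line; bars are exact Poisson 95% intervals of counting error and open triangles mark 0 reads, drawn at the floor of 3 reads. ncRNA_intra_chr12_10888 lies between 630.4 and 812 RPKM in stranded libraries and at or below 43.6 RPKM in the others, and ncRNA_as_chr12_10887 has no read in a stranded library.

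The unstranded and the stranded whole-tissue TCPOBOP library at 3 h differ by preparation, with 1 library each and no replicate check. The labels do not say whether they share livers. ncRNA_intra_chr12_10883 had 171 RPKM (812 reads) without strand and 20.8 RPKM (63 reads) with strand, a log2 difference of 3.03 (95% counting interval 2.66 to 3.40) on the log2(RPKM + 0.1) scale. ncRNA_as_chr12_10887 had 87.9 RPKM (418 reads) without strand and 0 reads with strand, at least 88.9-fold higher against the floor of 3 reads in the stranded library. ncRNA_intra_chr12_10888 had 5.39 RPKM (43 reads) without strand and 720.0 RPKM (3665 reads) with strand, a log2 difference of -7.04 (interval -7.47 to -6.60), or 131-fold lower on that scale.

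Most lncRNAs were higher without strand. Of 1933 lncRNAs with at least 0.5 RPKM in either library, 55.8% were higher without strand by 4-fold or more and 8.85% were lower by that much, and the median log2 difference was 2.24. By class these shares were 67.3% and 8.31% for antisense entries, and 27.6% and 25.3% for intragenic ones. Relative to that median ncRNA_intra_chr12_10883 stood at 0.80, ncRNA_as_chr12_10887 at no less than 4.24 and ncRNA_intra_chr12_10888 at -9.27. For ncRNA_intra_chr12_10888, 3 of the 1933 lncRNAs, itself included, lay at or below its difference. The value for ncRNA_intra_chr12_10883 rests on the stranded library: against the other 3 stranded libraries, a comparison added after seeing the data, its difference was 1.14 to 1.24, or -1.34 to -1.28 relative to their medians. Those libraries also differ from the unstranded one in agonist or time. Zero reads in stranded RNA were also common among antisense entries: of 357 with at least 1 RPKM in the unstranded library, 121 had none in the matched stranded library (33.9%) and 75 had none in any of the 4 (21.0%). ncRNA_as_chr12_10887, at 87.9 RPKM in the unstranded library, lay far above that cut, and the share among entries of its level was not taken.

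Taking the 7 entries of the locus together, the minus-strand entries had 1, 10, 0 and 4 reads in the stranded libraries, in the order TCPOBOP 6 h, TCPOBOP 3 h, PCN 6 h and PCN 3 h. The plus-strand entries had 11007, 9212, 10874 and 10647 reads in the same libraries. Minus-strand entries took 15.0% to 26.6% of the locus reads in the 8 libraries without strand. The whole locus held 104 to 737 reads per M in libraries without strand and 359 to 432 with strand. Without strand, reads from overlapping entries on opposite strands, or from a gene that overlaps them, cannot be told apart.

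**Figure D3:**
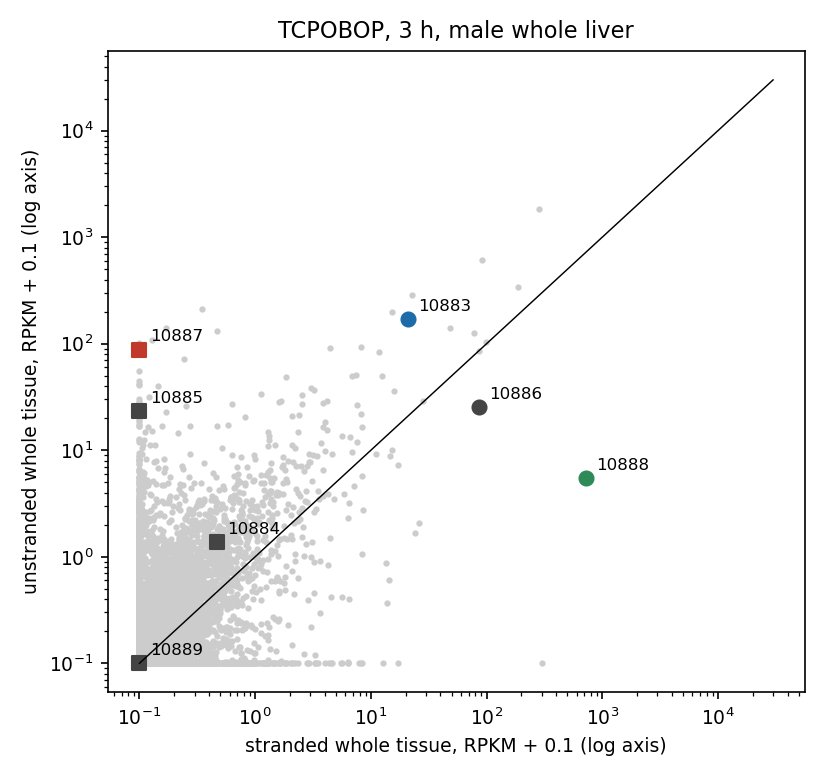
Each point is a lncRNA, with RPKM + 0.1 in unstranded (y) and stranded (x) whole-tissue RNA of males 3 h after TCPOBOP, both log axes, with the line of equality; circles are plus-strand and squares minus-strand entries of the locus, coloured for the 3 members and dark grey for the others. ncRNA_as_chr12_10887 sits at 0 reads on the stranded axis and ncRNA_intra_chr12_10888, at 720.0 RPKM with strand, far below the line.

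Nuclear RNA was set against whole-tissue RNA of males 3 h after TCPOBOP, both without strand. ncRNA_intra_chr12_10883 had 603, 1281 and 1167 RPKM in the nuclear pools, against 171 RPKM in whole tissue, a log2 difference of 2.50 (SE 0.56). For ncRNA_as_chr12_10887 the nuclear pools had 111, 213 and 178 RPKM, against 87.9 RPKM in whole tissue, a log2 difference of 0.88 (SE 0.60). Every nuclear pool lay above the whole-tissue library for both, as for 41% of the 6480 lncRNAs fitted. ncRNA_intra_chr12_10888 had 4.26, 2.76 and 2.12 RPKM in the nuclear pools, against 5.39 RPKM in whole tissue (log2 -0.86, SE 0.44). All of its pools lay below the whole-tissue library, as for 21.5% of lncRNAs, within overlapping counting intervals. The whole-tissue value is 1 library of another experiment, so fraction and experiment cannot be told apart, nor can fewer cells of a type and less RNA per cell.

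Female and male nuclear pools 3 h after TCPOBOP differed most for ncRNA_intra_chr12_10888. It averaged 33.8 ± 10.4 RPKM in females and 3.05 ± 1.09 RPKM in males (SD, n = 3 each), a log2 difference of 3.44 (SE 0.31) over 541 and 18 reads. That SE does not weigh the few male reads. With limma-voom on recovered reads, which does, the difference was 3.38 (SE 0.44). The female pools all lay above the male pools, as they did for 11.7% of the 5951 lncRNAs fitted, while females lay wholly below males for 19.6%. For ncRNA_intra_chr12_10888 the male unstranded libraries of G81 had 18.2 RPKM in nuclear PCN RNA and 5.39 RPKM in whole tissue. ncRNA_as_chr12_10887 averaged 373 ± 190.4 RPKM in females and 167 ± 51.9 RPKM in males, a log2 difference of 1.05 (SE 0.43). Its groups overlapped, because female pool 3, at 177 RPKM, lay below male pools 2 and 3. ncRNA_intra_chr12_10883 averaged 855 ± 358 RPKM in females and 1017 ± 363 RPKM in males (log2 -0.27, SE 0.40), a difference smaller than the spread within either sex. All 3 members passed the filter of this fit, and among females each was lowest in pool 3.

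**Figure D4:**
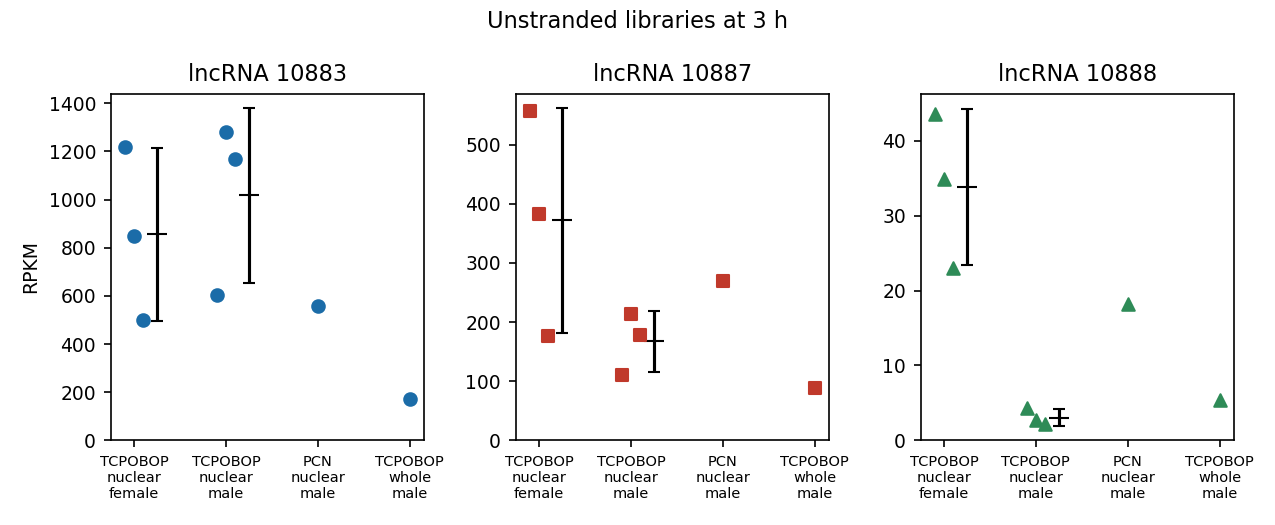
Points give RPKM (linear axes from 0) in unstranded libraries taken at 3 h: TCPOBOP female nuclear, TCPOBOP male nuclear, PCN male nuclear and TCPOBOP male whole tissue; bars are mean ± SD where there are 3 pools. For ncRNA_intra_chr12_10888 the female pools (23.0 to 43.6 RPKM) lie above the male pools (2.12 to 4.26 RPKM), and for ncRNA_intra_chr12_10883 the sexes overlap. Sex and experiment cannot be told apart in these pools.

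Ratios of RPKM within a library do not depend on its read total. ncRNA_as_chr12_10887 stood to ncRNA_intra_chr12_10883 at a ratio of 0.421 ± 0.0585 in female pools and 0.168 ± 0.0158 in male pools (SD, n = 3 each). The ranges were 0.354 to 0.458 in female pools and 0.153 to 0.184 in male pools. In the G81 libraries the ratio was 0.486 in nuclear PCN RNA and 0.515 in unstranded whole tissue. ncRNA_intra_chr12_10888 stood to ncRNA_intra_chr12_10886, a longer intragenic entry on the same strand whose span contains it, at 0.287 ± 0.0194 in female pools and 0.0630 ± 0.0389 in male pools. There the G81 libraries had 0.344 in nuclear PCN RNA and 0.214 in whole tissue. The 0.0630 of the male pools rests on 9, 4 and 5 reads of ncRNA_intra_chr12_10888 in pools 1, 2 and 3, so its counting error is wide. ncRNA_as_chr12_10887 stood to ncRNA_as_chr12_10885, an antisense entry whose span overlaps it on the same strand, at 1.75 ± 0.362 in female pools and 2.47 ± 1.06 in male pools. Those pools overlapped, at 1.53 to 2.17 in females and 1.75 to 3.69 in males, and the G81 libraries had 5.21 in nuclear PCN RNA and 3.81 in whole tissue. Sex and experiment cannot be told apart in the pools. The G81 libraries are male and differ from the male pools in agonist or in RNA fraction as well as in experiment, and the part of each was not tested. In stranded RNA ncRNA_intra_chr12_10888 exceeded ncRNA_intra_chr12_10886 by a ratio of 5.73 to 8.42.

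**Figure D5:**
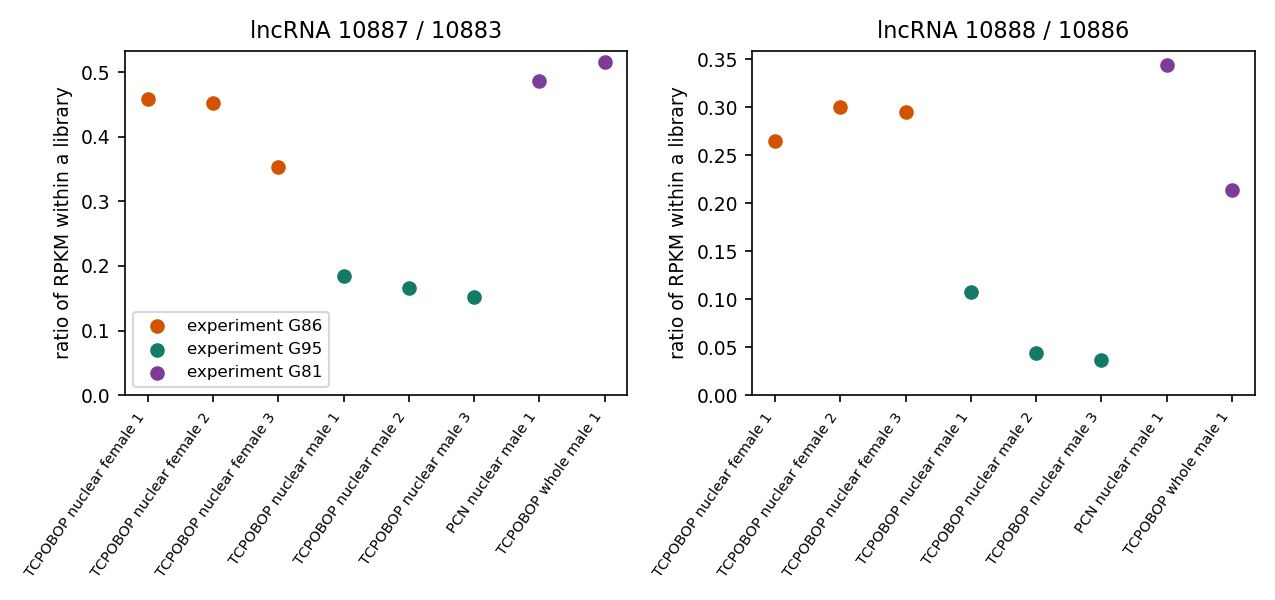
Points give the ratio of RPKM of ncRNA_as_chr12_10887 to ncRNA_intra_chr12_10883 (left) and of ncRNA_intra_chr12_10888 to ncRNA_intra_chr12_10886 (right) within each of the 8 unstranded libraries, coloured by experiment. The 3 male pools of G95 (0.153 to 0.184 on the left, 0.0370 to 0.108 on the right) lie below the other 5 libraries in each panel. On the right these pools rest on 9, 4 and 5 reads of ncRNA_intra_chr12_10888.

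TCPOBOP was set against PCN in male nuclear RNA at 3 h, with 3 TCPOBOP pools and 1 PCN library assumed to vary like the pools. The members were listed with these values known, so no p is given for them. ncRNA_intra_chr12_10888 had 4.26, 2.76 and 2.12 RPKM with TCPOBOP, against 18.2 RPKM with PCN (log2 -2.60, SE 0.44). The female TCPOBOP pools, which differ from the PCN library in sex and experiment as well, had 23.0 to 43.6 RPKM. Female pool 3 overlapped the PCN library within counting error. ncRNA_as_chr12_10887 had 111, 213 and 178 RPKM with TCPOBOP, against 270.4 RPKM with PCN (log2 -0.74, SE 0.60). For ncRNA_intra_chr12_10883 the TCPOBOP pools had 603, 1281 and 1167 RPKM, against 556 RPKM with PCN (log2 0.80, SE 0.56). Each member's male TCPOBOP pools lay on the same side of the PCN library, as did 39.5% of the 6480 lncRNAs fitted upward and 20.1% downward. In the same fit limma called 4.18% of all lncRNAs higher and 1.05% lower with TCPOBOP (271 and 68, against 130 and 94 with medians set equal). The TCPOBOP pools are of experiment G95 and the PCN library of G81, so agonist and experiment cannot be told apart.

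In stranded whole-tissue RNA, with 1 library per agonist and time and no replicate check, ncRNA_intra_chr12_10883 stood out at 3 h. It had 20.8 RPKM (63 reads) with TCPOBOP and 77.5 RPKM (235 reads) with PCN, a log2 difference of -1.89 (95% counting interval -2.30 to -1.49), or 3.72-fold lower on that scale. Of 633 lncRNAs, 6.95% were lower with TCPOBOP by 2-fold or more and 8.53% higher by that much, and 11, itself included, lay at or below its difference. At 6 h it had 76.1 RPKM with TCPOBOP and 72.4 RPKM with PCN (log2 0.072, interval -0.19 to 0.33), where 7.6% of 566 lncRNAs were lower by 2-fold or more and 9.36% higher. ncRNA_intra_chr12_10888 had 720.0 RPKM with TCPOBOP and 812 RPKM with PCN at 3 h (log2 -0.17, interval -0.24 to -0.11), and 630.4 RPKM with TCPOBOP and 668 RPKM with PCN at 6 h (log2 -0.08, interval -0.15 to -0.02). ncRNA_as_chr12_10887 had 0 reads in all 4 libraries, so no difference was detectable at this depth.

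Set by time, the same 4 libraries gave 76.1 RPKM at 6 h and 20.8 RPKM at 3 h for ncRNA_intra_chr12_10883 with TCPOBOP (log2 1.87, interval 1.47 to 2.27). With PCN it had 72.4 RPKM at 6 h and 77.5 RPKM at 3 h (log2 -0.10, interval -0.36 to 0.17). With TCPOBOP 10.3% of 642 lncRNAs were higher at 6 h by 2-fold or more and 14.8% lower, and 19 lay at or above the difference of ncRNA_intra_chr12_10883. With PCN these shares were 8.5% and 13.6% of 588. ncRNA_intra_chr12_10888 had 630.4 RPKM at 6 h and 720.0 RPKM at 3 h with TCPOBOP (log2 -0.19, interval -0.26 to -0.12, but 0.050 with medians set equal and 0.019 per lncRNA reads), and 668 RPKM at 6 h and 812 RPKM at 3 h with PCN (log2 -0.28, interval -0.35 to -0.21). Among these 4 stranded libraries, each difference of ncRNA_intra_chr12_10883 between agonists or times beyond 2-fold thus rests on the single TCPOBOP library of 3 h.

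The locus holds 4 other entries, chosen by position alone, and 3 had a mean of at least 1 RPKM over the 12 libraries. ncRNA_intra_chr12_10886 (chr12:105582898-105635690, plus strand, 2495 counted bases) had 120 ± 43.7 RPKM in female pools and 53.1 ± 12.03 RPKM in male pools (SD, n = 3 each). It had 52.9 RPKM in nuclear PCN RNA, 25.2 RPKM in unstranded whole tissue and 85.5 to 116.7 RPKM in stranded RNA. ncRNA_as_chr12_10885 (chr12:105580535-105649095, minus strand, 362 counted bases), like ncRNA_as_chr12_10887, had 0 reads in every stranded library. Without strand it had 207 ± 81.1 RPKM in female pools, 70.4 ± 17.1 RPKM in male pools, 51.9 RPKM in nuclear PCN RNA and 23.1 RPKM in whole tissue. ncRNA_as_chr12_10884 (chr12:105492714-105653343, minus strand, 1054 counted bases) had at most 0.369 RPKM in stranded RNA and 1.27 to 13.5 RPKM without strand. The remaining antisense entry, ncRNA_as_chr12_10889, had 0 reads in all 12 libraries.

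Across the 8 unstranded libraries, log2(RPKM + 0.1) of ncRNA_intra_chr12_10883 went with that of ncRNA_as_chr12_10887 at r = 0.67 and with ncRNA_intra_chr12_10888 at r = 0.01, and ncRNA_as_chr12_10887 with ncRNA_intra_chr12_10888 at r = 0.69. ncRNA_as_chr12_10887 was closer to ncRNA_intra_chr12_10886, at r = 0.93. These are Pearson correlations given as a description of libraries that share experiments and pools. Over all 12 libraries, which fall into stranded and unstranded sets, the entries other than members with the highest Pearson correlation were on other chromosomes. For ncRNA_intra_chr12_10883 the nearest of 1536 candidates was ncRNA_intra_chr18_14422 (r = 0.97, and 0.96 within the unstranded libraries), followed by ncRNA_as_chr1_77 and ncRNA_as_chr8_7320. For ncRNA_as_chr12_10887 they were ncRNA_as_chr9_8065 (r = 0.997, and 0.88 within the unstranded libraries), ncRNA_as_chr14_12161 and ncRNA_inter_chr7_6283. Of the locus, ncRNA_as_chr12_10885 came close to these, at r = 0.994 with ncRNA_as_chr12_10887. For ncRNA_intra_chr12_10888 they were ncRNA_intra_chr16_13152 (r = 0.96, and 0.78 within the unstranded libraries), ncRNA_intra_chr5_4734 and ncRNA_as_chr19_14968. Other settings named partly other entries, except that Spearman correlation over 12 libraries kept all 3 for ncRNA_intra_chr12_10888. Within the 8 unstranded libraries ncRNA_as_chr12_10884 of the locus came second for ncRNA_intra_chr12_10883 (r = 0.95) and ncRNA_intra_chr12_10886 came first for ncRNA_as_chr12_10887. By Spearman correlation over 12 libraries, 2 of the 3 nearest to ncRNA_intra_chr12_10883 were entries of chromosome 12 outside the locus.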

How the data were processed

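The authors deposited RPKM values of 15558 lncRNAs, per the file headers. Reads had been aligned with TopHat2 to mm9, per the submitters' processing notes; how reads were counted (tool, annotation, use of strand) was not given in the sources used here. Of 25 value columns, 12 matched a library of this series and 13 were not used. Read totals and counted lengths were recovered from the steps of the RPKM values: 100.0% of 89242 values above 0 were whole reads within 1e-06. limma 3.58.1 (R 4.3.3) was fitted, with its trend on mean level, to log2(RPKM + 0.1) of lncRNAs with at least 0.1 RPKM in 3 libraries, with Benjamini-Hochberg adjustment over all lncRNAs, called under 0.05: 6 pools for sex, 8 unstranded libraries for the nuclear contrasts. Fold changes on this scale understate changes of low lncRNAs. Pairs of libraries used lncRNAs with at least 0.5 RPKM in either. The members and lists were chosen with earlier results of these data known, so the p planned for the members between agonists in nuclei is not given. Other lncRNAs are named if they overlap 105370000-105660000 of chromosome 12 with a mean of at least 1 RPKM, or are the 3 most alike per member with a mean of at least 0.5 RPKM. Alternatives changed the pseudocount, filter, scaling, denominator, test, block, pools and stranded library.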

Additional observations from a re-analysis of the deposited data

Results flagged for a closer look

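The agonist difference of ncRNA_intra_chr12_10883 took opposite signs at the 2 times in stranded whole-tissue RNA. The log2 difference (TCPOBOP minus PCN) was -1.89 at 3 h (95% counting interval -2.30 to -1.49). At 6 h it was 0.072 (interval -0.19 to 0.33), so its sign at 6 h is not settled. In the same 4 libraries its difference between 6 h and 3 h was 1.87 with TCPOBOP and -0.10 with PCN (interval -0.36 to 0.17). In male nuclear RNA at 3 h its log2 difference between TCPOBOP and PCN was 0.80 (SE 0.56), opposite to whole tissue at 3 h. All 3 nuclear TCPOBOP pools lay above the PCN library, as for 39.5% of the 6480 lncRNAs fitted. The lowest, male pool 1 (561 to 647 RPKM), overlapped that library (528 to 586 RPKM) within counting error. The sign in nuclei is thus not settled either. None of these differences between times, agonists or fractions was tested, and the nuclear and whole-tissue libraries differ in strand as well. The nuclear TCPOBOP pools are also of experiment G95, and the other libraries set here of G81.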

How the results depend on the processing

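Scaling moved the contrast of unstranded with stranded RNA most. With medians set equal, the log2 difference was 0.80 for ncRNA_intra_chr12_10883, at least 4.24 for ncRNA_as_chr12_10887 and -9.27 for ncRNA_intra_chr12_10888. Per lncRNA reads it was 0.94, at least 4.38 and -9.10. The difference of ncRNA_intra_chr12_10888 between TCPOBOP and PCN in whole tissue at 3 h was -0.32 and -0.27 under these scalings. Between 6 h and 3 h it was 0.050 and 0.019 with TCPOBOP, so its sign is not settled, and -0.19 with PCN per lncRNA reads. Against the stranded libraries of TCPOBOP at 6 h, PCN at 6 h and PCN at 3 h, the unstranded library gave 1.17, 1.24 and 1.14 for ncRNA_intra_chr12_10883, an alternative chosen after seeing the data. The filter on low values cannot move the nuclear difference of ncRNA_intra_chr12_10888 between TCPOBOP and PCN, -2.60 either way. Without the filter its SE was larger, 0.50 against 0.44. In that fit the median of all lncRNAs was -0.01 with equal medians, against 0.26 otherwise. Of the 3 lncRNAs most alike, 1 stayed for ncRNA_intra_chr12_10883 and ncRNA_as_chr12_10887 and 0 for ncRNA_intra_chr12_10888 within the 8 unstranded libraries, and 1 stayed for the first 2 by Spearman correlation. Pool numbers did not pair the sexes (r from -0.07 to -0.00 for same-numbered pools). Each pool number holds 1 pool of each sex, so a block on it cannot move the female minus male differences (-0.27, 1.05 and 3.44). With the block their SE was 0.44, 0.43 and 0.19, against 0.40, 0.43 and 0.31 without it. Calls over all lncRNAs fell to 287, against 523 without the block. Leaving out 1 pool gave 159 to 367 calls between the sexes and 164 to 437 between the agonists in nuclei, against 339. There limma-voom on recovered reads called 684, no filter 563 and equal medians 224. Between the sexes no filter gave 334, and between nuclear and whole-tissue RNA limma-voom called 1523, against 738. With 1 pool left out the sex difference ran from -0.61 to 0.073 for ncRNA_intra_chr12_10883, positive without female pool 3, from 0.69 to 1.52 for ncRNA_as_chr12_10887 and from 3.22 to 3.70 for ncRNA_intra_chr12_10888. The 18 reads of ncRNA_intra_chr12_10888 in male pools limit its values there.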

Other observations

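Beside the locus, 9 intergenic entries lay within 200000 bases, and 2 had a mean of at least 1 RPKM. ncRNA_inter_chr12_10882 (chr12:105347342-105348409, minus strand) had 2.41 ± 1.16 RPKM in female nuclear pools and 6.01 ± 1.46 RPKM in male ones (SD, n = 3 each). It had 3.20 RPKM in nuclear PCN RNA, 2.05 RPKM in unstranded whole tissue and 0.639 to 2.26 RPKM in stranded libraries. ncRNA_inter_chr12_10881 (chr12:105345276-105345676, minus strand) had 1.46 ± 0.899 RPKM in female pools and 5.03 ± 1.67 RPKM in male pools. It had 0.682 RPKM in nuclear PCN RNA and 0.309 RPKM in unstranded whole tissue, both male and below the female mean. Stranded libraries had 0.269 to 0.991 RPKM.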
